A study of Mus musculus with 2 samples.

Results

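Keratin genes encode the intermediate filament proteins of epithelial cells, and in the mouse they lie in a pair of clusters, type I (acidic) keratins on chromosome 11 and type II (basic) keratins on chromosome 15. The members described here were all protein-coding genes whose symbol is Krt followed by a number and at most lower-case letters, which leaves out the keratin-associated Krtap genes. The rule found 53 genes of the 20572 protein-coding genes with a known strand, 27 on chromosome 11 and 26 on chromosome 15. Krt18, on chromosome 15, is by sequence a type I keratin and is the known exception to the arrangement.

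The study mapped monomethylation of lysine 4 of histone H3 (H3K4me1) by chromatin immunoprecipitation and sequencing in E14TG2a.4 cells, which are male embryonic stem cells of strain 129/Ola mice (labelled embryonic, 3.5 day). There was 1 group with 2 biological replicates, no treatment, and no second cell type or condition. Both replicates come from the same line, and the labels do not say what separated them, so the spread given below is the spread between these 2 libraries. The deposited values are peak intervals, not reads. Depth is therefore unknown, and coverage means the percentage of bases that lie inside a listed peak.

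A keratin filament is built from heterodimers of a type I and a type II protein, and each epithelium is known for its own pair. Krt8 and Krt18 form the pair of simple, one-layered epithelia and are the first keratins made in the mouse embryo, Krt5 and Krt14 that of basal epidermis, Krt1 and Krt10 that of suprabasal epidermis, and a large set of hard keratins is confined to hair and nail. H3K4me1 is known to mark enhancers, active or poised, and the flanks of promoters, and is usually lower at the nucleosomes next to the start of a highly active gene. The mark is not a measure of transcription. The rule sets Krt8, Krt18, Krt19 and Krt42 against the other keratins as a simple-epithelial set. Below, simple-epithelial is the name given by this rule, and where each gene is expressed was not tested.

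Marker genes of stem cells, fibroblasts and keratinocytes were set beside the cell label. Their lists were chosen with earlier results of these data known, so they are not an independent check of the label. For comparison, 74.7% of all protein-coding genes had a promoter peak, a replicated peak within 2 kb of the transcription start site. Coverage within 20 kb of the transcription start site (TSS), upstream or downstream, had a median of 51.5% over 14 embryonic stem cell markers, of which 13 had a promoter peak, and ranged from 6.04% at Nr0b1 and 8.08% at Esrrb to 77.3% at Klf2. It was 3.14% over 8 fibroblast markers, 4 with a promoter peak. Col3a1, Dcn and Lum had no covered base, while Pdgfrb, Thy1 and Col1a1 had 39.8%, 30.8% and 30.2%. It was 1.91% over 8 keratinocyte markers, 3 with a promoter peak, and Ivl had no covered base while Sfn reached 75.7%. The keratinocyte list includes the keratins Krt5 (0.84%) and Krt14 (23.8%), so it is not separate from the family described here. Replicate 1 listed 313453 peaks with a median width of 404 bp, replicate 2 listed 325226 peaks with a median width of 394 bp, and the list of replicated peaks held 226060 intervals. Of the peaks that touch the keratin clusters, 158 of 214 (73.8%) in replicate 1 were overlapped by a replicate 2 peak by at least 1 bp, and 173 of 212 (81.6%) in replicate 2 by a replicate 1 peak. The shares over the genome were 82.8% and 79.4%. Of the 157 replicated peaks that touch the keratin clusters, 145 (92.4%) were overlapped by peaks of both replicates.

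The DNA just before the start sites is given first for 6 members that range from broad peaks to no peak. The 100 bases upstream of 6 start sites are shown on the gene's own strand (RefSeq, GRCm38.p6, the assembly also called mm10) because peaks lay on some of them and not on others. Capitals mark TATAAA, the consensus core of the TATA box, and CCAAT, the core of the CCAAT box. Krt8 at chr15:102004343-102004442 (minus strand) and Krt42 at chr11:100269952-100270051 (minus strand) lay wholly inside peaks of both replicates. Krt18 at chr15:102028116-102028215 (plus strand) lay in peaks over 100% of these bases in replicate 1 and 67.0% in replicate 2.
Krt8: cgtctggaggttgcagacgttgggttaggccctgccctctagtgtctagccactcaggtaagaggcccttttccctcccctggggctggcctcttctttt
Krt18: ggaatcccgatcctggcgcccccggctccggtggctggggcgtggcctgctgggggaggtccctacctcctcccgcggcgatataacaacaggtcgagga
Krt42: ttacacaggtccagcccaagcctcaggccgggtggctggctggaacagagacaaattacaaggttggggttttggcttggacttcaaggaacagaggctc
None of these 3 holds either motif in the 100 bases shown. The next 3 do, and all are on the minus strand. Krt71, an inner root sheath keratin, at chr15:101743098-101743197, lay in a peak over 100% of the bases in replicate 1 and 42.0% in replicate 2. Krt28, of the same tissue, at chr11:99374904-99375003, was reached by a peak over 8.0% of the bases in replicate 1 and none in replicate 2. Krt31, a hair keratin, at chr11:100050552-100050651, was in no peak of either replicate.
Krt71: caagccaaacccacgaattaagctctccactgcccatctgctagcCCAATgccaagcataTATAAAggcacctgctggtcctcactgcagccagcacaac
Krt28: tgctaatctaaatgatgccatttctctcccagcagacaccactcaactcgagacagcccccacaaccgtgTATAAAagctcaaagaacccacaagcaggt
Krt31: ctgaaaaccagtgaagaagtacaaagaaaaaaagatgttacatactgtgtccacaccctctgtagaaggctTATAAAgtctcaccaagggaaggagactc
The TATAAA starts 40 bases before the TSS in Krt71, 30 in Krt28 and 29 in Krt31, and in Krt71 it does not overlap the CCAAT.

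RefSeq promoter entries were matched for 36 of the 53 members. Over 250 bases upstream, searched on both strands, TATAAA was present in 17 of 36 keratin promoters (47.2%) and in 12.1% of the 16532 protein-coding promoters searched the same way. GGGCGG, the core of the GC box, was present in 2 keratin promoters (5.56%), those of Krt7 and Krt75, and in 44.3% of all promoters. TGANTCA, the core of the AP-1 site (N is any base), was found in 1 keratin promoter (2.78%), that of Krt13, against 6.32% of all, and CCAAT in 38.9% against 36.6%. The median GC content was 48.0% in keratin promoters and 56.0% in all promoters, and the median ratio of observed to expected CpG was 0.265 and 0.563. TATAAA was present in 0 of the 3 matched simple-epithelial promoters and in 17 of the 33 other keratin promoters. It was present in 7 of 18 matched members with a promoter peak and in 10 of 18 without one. A match is a description of the letters and not evidence of a bound factor.

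Around the start sites, the keratin family carried less H3K4me1 than most genes, and a few members carried a great deal. The median coverage of the 40 kb centred on the TSS was 4.85% in replicate 1 and 4.69% in replicate 2 over the 53 keratins, against 14.7% and 14.4% over all protein-coding genes. A replicated peak lay within 2 kb of the TSS, here called a promoter peak, in 29 of 53 keratins (54.7%), and in 74.7% of all protein-coding genes. At least 1 replicate had a covered base within 20 kb of the TSS in 45 keratins (84.9%), against a background of 86.0%, which leaves 8 keratins with none. Mean coverage was above the all-gene median in 12 keratins, against 50.1% of the 20519 genes outside the family, and above the 90th percentile in 2, Krt42 and Krt17, where the background is 10.0%. The TSS base itself lay in a peak of both replicates in 13 keratins (24.5%), against 13.6% of all genes. The share of genes with any covered base was thus close to the background, while the shares with a promoter peak and with coverage above the median were below it.

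**Figure D1:**
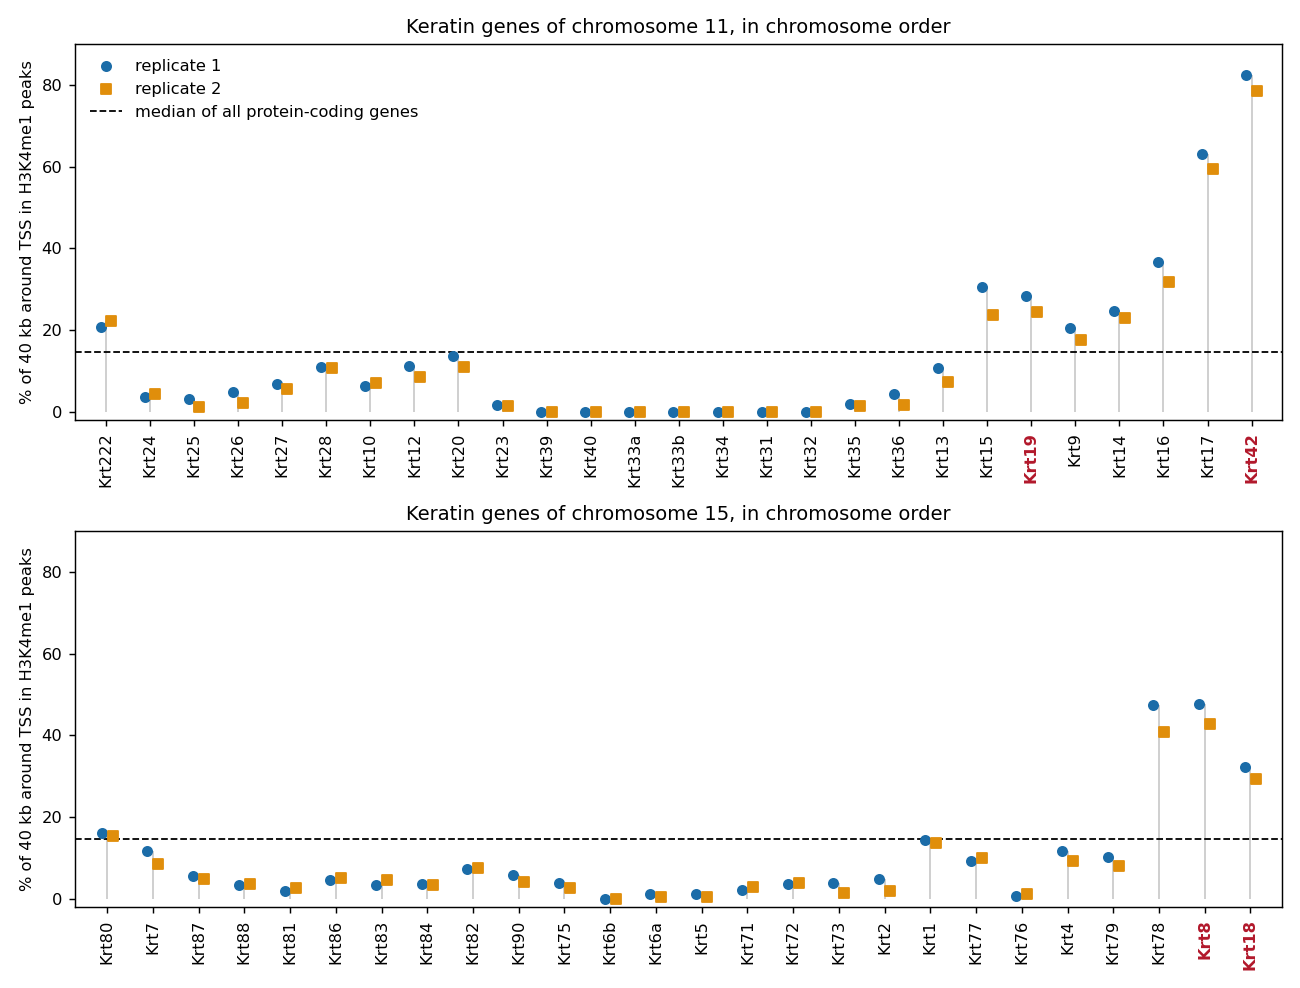
Percentage of the 40 kb around each keratin TSS inside H3K4me1 peaks, for replicate 1 (circles) and replicate 2 (squares), with genes in chromosome order and Krt8, Krt18, Krt19 and Krt42 in red. The dashed line is the median of all protein-coding genes, and the members above it lie toward the ends of the clusters, with a run of 7 genes from Krt39 to Krt32 at 0.

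Krt8, Krt18, Krt19 and Krt42 were all above the all-gene median in both replicates. Krt42, a type I keratin at the end of the chromosome 11 cluster, had 82.4% and 78.5% coverage in the 2 replicates, a mean of 80.5% ± 2.71 (SD, n = 2), which is higher than in 99.7% of protein-coding genes. Krt8, the type II keratin of simple epithelia, had 47.7% and 42.9%, a mean of 45.3% ± 3.37 (SD, n = 2), higher than in 85.5% of genes. Krt18, its type I partner, had 32.1% and 29.3%, a mean of 30.7% ± 2.01 (SD, n = 2), higher than in 71.9% of genes. These values put Krt42 apart from the other 3 in both replicates, and Krt8 apart from Krt18. Krt19, the type I keratin known for lacking a tail domain, had 28.3% and 24.4%, a mean of 26.3% ± 2.76 (SD, n = 2), higher than in 67.0% of genes. Krt19 was the lowest of the 4 in both replicates, and its higher value lay just under the lower value of Krt18.

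The median of the 4 genes was 39.9% in replicate 1 and 36.1% in replicate 2, against 4.51% and 4.21% for the other 49 keratins. The difference of the medians was 35.4 percentage points in replicate 1 and 31.9 in replicate 2, a mean of 33.6 ± 2.48 (SD, n = 2). Within 5 kb of the TSS the medians were 70.0% and 61.1% for the 4 genes, against 6.15% and 3.37% for the others, a mean difference of 60.8 ± 4.38 percentage points (SD, n = 2). All 4 had a promoter peak, as did 25 of the other 49. The groups overlap. Krt17 and Krt78 among the other keratins were above Krt18 and Krt19, Krt16 was above Krt18 in both replicates, and Krt15 was above Krt19 in replicate 1 and below it in replicate 2. The Krt8 and Krt18 windows are not separate measurements, since their start sites are 23874 bp apart and 40.3% of each window is shared. Likewise 77.7% of the Krt42 window is also the Krt17 window.

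**Figure D2:**
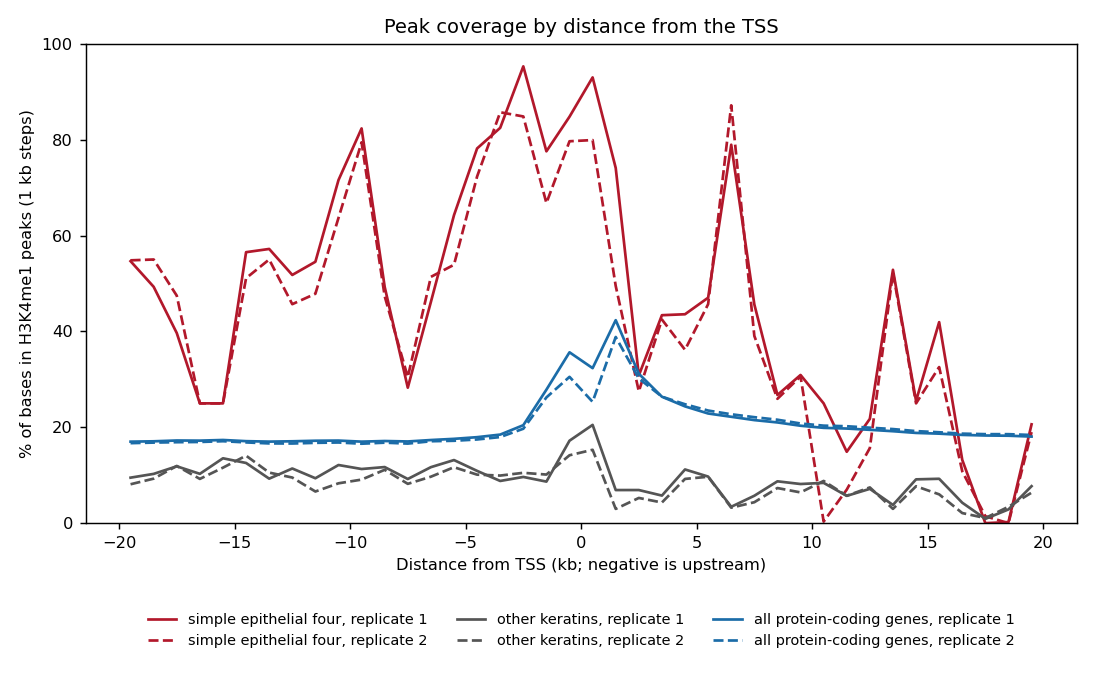
Percentage of bases inside peaks in 1 kb steps from 20 kb upstream to 20 kb downstream of the TSS, for the 4 simple-epithelial genes (red), the other 49 keratins (grey) and all protein-coding genes (blue), with replicate 1 as solid and replicate 2 as dashed lines. The red lines lie above both others from 20 kb upstream to 2 kb downstream, and the grey lines lie below the blue ones throughout.

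In the kilobase upstream of the TSS, coverage was 84.8% and 79.7% over the 4 genes in the 2 replicates, 17.2% and 14.2% over the other keratins, and 35.7% and 30.5% over all protein-coding genes. In the first kilobase downstream it was 93.0% and 80.0% over the 4 genes, 20.5% and 15.3% over the other keratins, and 32.4% and 25.3% over all genes. Over all genes coverage dipped at the first downstream kilobase in both replicates, while the other keratins had their highest step there in both. The curve of 4 genes rests on few intervals, and single peaks shape its rises and falls.

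The intervals themselves show how the 4 loci differ. At Krt42 the replicated peak over the TSS ran from 734 bp upstream to 1487 bp downstream, and a second peak of 2117 bp lay 891 to 3007 bp upstream. The second peak had a signal value of 12.1, on the authors' scale for peaks, above 99.5% of the peaks of that list. Neighbouring peaks no more than 1 kb apart, when joined, formed a domain of 37909 bp at chr11:100253617-100291525, which holds the TSSs of Krt17 and Krt42 and was made of 15 replicated peaks. Of 110533 such domains in the genome it ranked 164th in width. Built from the replicates alone, the domain was 37914 bp wide in replicate 1 (rank 141) and 31348 bp in replicate 2 (rank 300).

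The Krt8 domain, at chr15:101997221-102011144, was 13924 bp wide and spanned most of the gene as well as its upstream side. Its widest peak, 4351 bp, reached from 4066 bp upstream of the TSS to 284 bp downstream. The Krt18 domain, at chr15:102022331-102030004, was 7674 bp wide, and its widest peak of 2470 bp lay wholly upstream, 1193 to 3662 bp before the TSS. In replicate 1 a single peak of 1530 bp covered the Krt18 TSS, while in replicate 2 the peaks on either side of it stopped 34 bp upstream and began again 16 bp downstream. Between Krt8 and Krt18 stood 2 further strong peaks of 1419 and 2597 bp, with signal values of 8.47 and 8.35, above 93.7% and 93.3% of the peaks of the replicated list. The Krt19 domain was 7154 bp wide at chr11:100144227-100151380 in the replicated list, 11956 bp in replicate 1 and 6288 bp in replicate 2. It had a peak of 1697 bp over the TSS and a peak of 2456 bp 2999 to 5454 bp upstream. Outside the domain, the strongest replicated peak within 20 kb of this TSS, of signal value 8.47, lay 5951 to 7360 bp downstream, beyond the 3′ end of the 5117 bp gene.

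**Figure D3:**
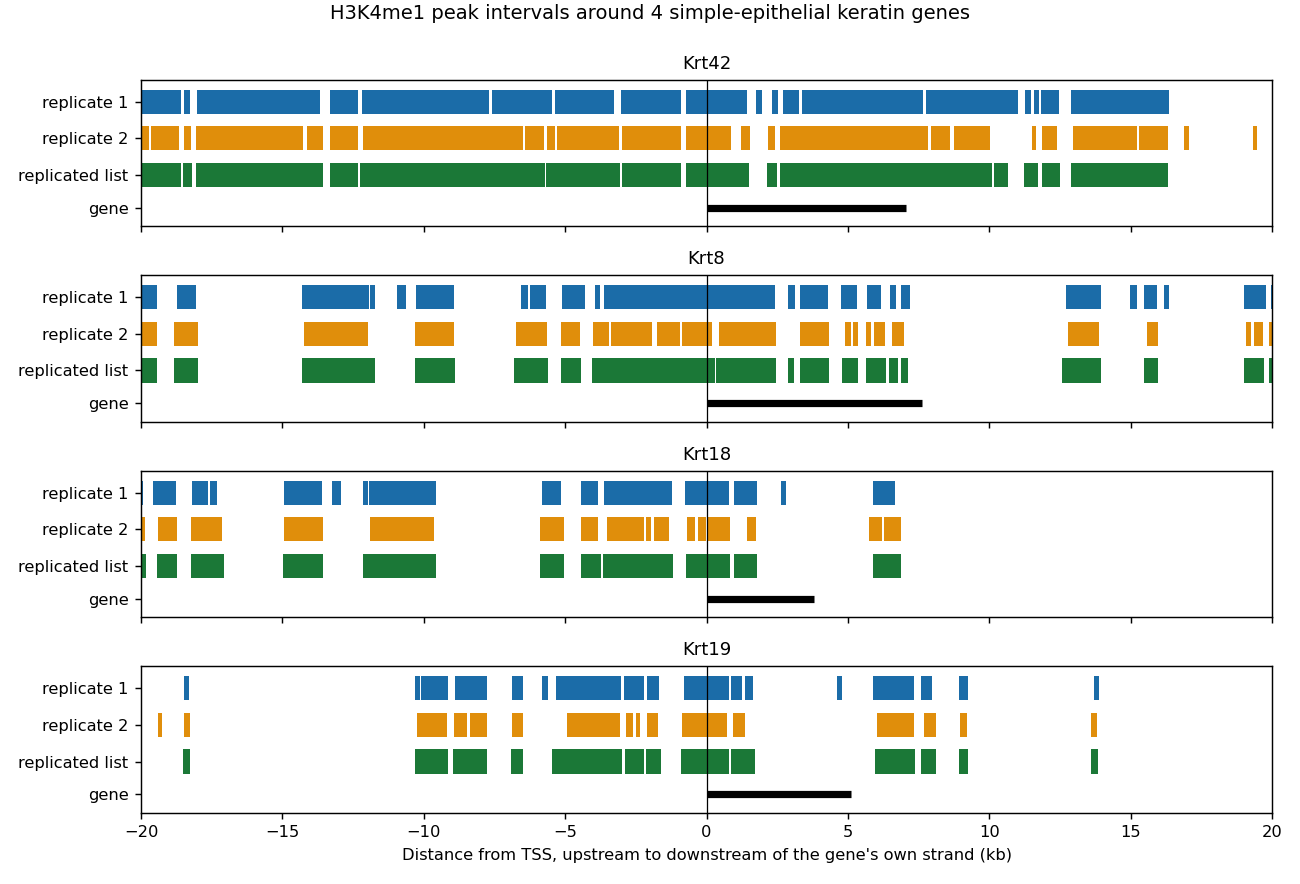
Peak intervals within 20 kb of the TSS of Krt42, Krt8, Krt18 and Krt19, drawn from upstream (left) to downstream (right) of each gene's own strand, for replicate 1 (blue), replicate 2 (orange) and the replicated list (green), with the gene as a black bar. Krt42 is covered almost end to end on its upstream side, while Krt8, Krt18 and Krt19 have blocks of peaks separated by gaps.

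Over the gene bodies, from TSS to 3′ end, coverage was 84.9% ± 2.38 at Krt42, 64.7% ± 6.38 at Krt8, 37.6% ± 12.1 at Krt18 and 27.5% ± 6.59 at Krt19 (SD, n = 2). Among the other keratins Krt17 had 67.5% ± 21.5 and Krt14 had 45.3% ± 11.8 (SD, n = 2). The replicates were far apart over the bodies of Krt17, Krt18 and Krt14, where replicate 1 was the higher.

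The keratins of stressed and healing epidermis were split. Krt17, which is induced in wounded skin and present in hair follicles, had 63.1% and 59.5% coverage, a mean of 61.3% ± 2.54 (SD, n = 2), and carried the widest promoter peak of the family, 7488 bp from 6331 bp upstream to 1156 bp downstream of the TSS, which also covers part of the Krt42 body. The next gene, Krt16, had 36.6% and 31.7%, but its window shares 47.4% of its bases with that of Krt42. Within 5 kb of the Krt16 TSS coverage was 8.29%, and over its body 2.44%. Krt75, a hair follicle keratin, had 3.22% ± 0.82 (SD, n = 2). Krt6a, the type II partner of Krt16 and Krt17 in wounds, had 1.15% and 0.53%, and Krt6b had no covered base in either replicate. The type I members of this class were thus high and the type II members low in this window, and for Krt16 most of the covered bases lay more than 5 kb from the TSS.

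Epidermal keratins had a class median of 11.9% over 8 genes. A promoter peak was present in 6 of the 8, a share close to the 74.7% of all protein-coding genes. Krt15, of basal and follicle stem cells, was the highest at 27.1% ± 4.69 (SD, n = 2), though 75.1% of its window is shared with Krt19 and its body had 4.45%. Krt14, the basal type I keratin, had 24.6% and 23.0%, with 4 promoter peaks of which the widest, 1493 bp, began 1308 bp downstream of the TSS. The start of its RefSeq promoter entry, 1480 bp away, lies inside that widest peak. Krt9, of palm and sole skin, had 20.4% and 17.5% and a single peak of 908 bp over the TSS. Krt5, the type II partner of Krt14, had 1.15% and 0.53% and no promoter peak, and its nearest replicated peak was 29817 bp from the TSS. The basal pair thus differed more than the spread between replicates, Krt14 being high and Krt5 low. The suprabasal pair was closer: Krt1 had 14.5% and 13.8%, and Krt10 had 6.33% and 7.06%. At the start of its RefSeq promoter entry, 8085 bp away, Krt10 had 9.73% and 10.6%. Krt2, of the upper epidermis, had 3.36% ± 2.04 (SD, n = 2) with 2 promoter peaks, and Krt77 had 9.59% ± 0.56 (SD, n = 2) with none.

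Other keratins of simple and ductal epithelia had a class median of 11.2%. Krt80 had 15.8% ± 0.46 (SD, n = 2), with a peak of 1621 bp over the TSS. Krt20, of intestine and urothelium, had 12.3% ± 1.82 (SD, n = 2), and Krt7, of glandular ducts, had 11.8% and 8.43%. Both had replicated peaks over the TSS, 769 bp wide at Krt20 and 906 bp at Krt7. In replicate 2 no peak covered the Krt7 TSS. Krt23 had 1.41% and no promoter peak in the replicated list.

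Mucosal and corneal keratins had a class median of 9.14%, and 6 of 7 had a promoter peak (85.7%, against 74.7% of all genes). The 6 include Krt78, which has a promoter peak only with the start site of its gene record, so the share is not evidence of an excess. Krt4 and Krt13, the pair of oral and oesophageal mucosa, had 10.5% ± 1.76 and 8.91% ± 2.48 (SD, n = 2). Each had a single replicated peak over the TSS, but in replicate 2 no peak covered either TSS. Within 5 kb of the Krt13 TSS, replicate 2 had no covered base. Krt12, of the corneal epithelium, had 9.81% ± 1.91 (SD, n = 2), Krt79 had 9.14% with 2 promoter peaks, and Krt24 had 3.93%. Krt76, of the palate, was lowest at 0.98% with no promoter peak. Krt78 had 47.4% and 40.9%, but this rests on where its TSS is placed. The gene record runs from 101946001 to 101996624 on chromosome 15, so that its start lies 7718 bp from that of Krt8 and 80.7% of the windows coincide. With the start of the RefSeq promoter entry, 42337 bp away, Krt78 had 7.20% ± 0.04 (SD, n = 2) and no promoter peak.

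The 7 inner root sheath keratins, which build the sheath that moulds the growing hair, had a median of 3.45% and ranged from 2.13% (Krt25) to 10.7% (Krt28). A promoter peak was present in 4 of the 7 (57.1%, against 74.7% of all genes), and it lay over the TSS in each. It was 353 bp wide at Krt27, 492 bp at Krt28, 619 bp at Krt71 and 319 bp at Krt72. The TSS base of Krt27, Krt71 and Krt72 lay in a peak of both replicates, which held for 13.6% of all genes. Krt26 had 3.45% and Krt73 had 2.65%, both with no promoter peak.

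Hair and nail keratins had the lowest class median, 1.61% over 15 genes. Krt31, Krt32, Krt33a, Krt33b, Krt34, Krt39 and Krt40 had no covered base within 20 kb of the TSS in either replicate, and with Krt6b they are the 8 keratins at 0. The highest of the class was Krt82 at 7.41% ± 0.31 (SD, n = 2), which had no promoter peak. Promoter peaks were present at Krt81, Krt83 and Krt87, of 500, 1226 and 540 bp (20.0% of the class, against 74.7% of all genes). All 3 are type II genes of chromosome 15, while none of the 9 type I hair keratins had one.

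Of the 3 members that fit no class, Krt222, at the outer end of the chromosome 11 cluster, had 20.7% and 22.3%, with 4 promoter peaks, one of 1026 bp over the TSS. Krt90 had 5.07% and Krt88 had 3.51%, neither with a promoter peak.

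**Figure D4:**
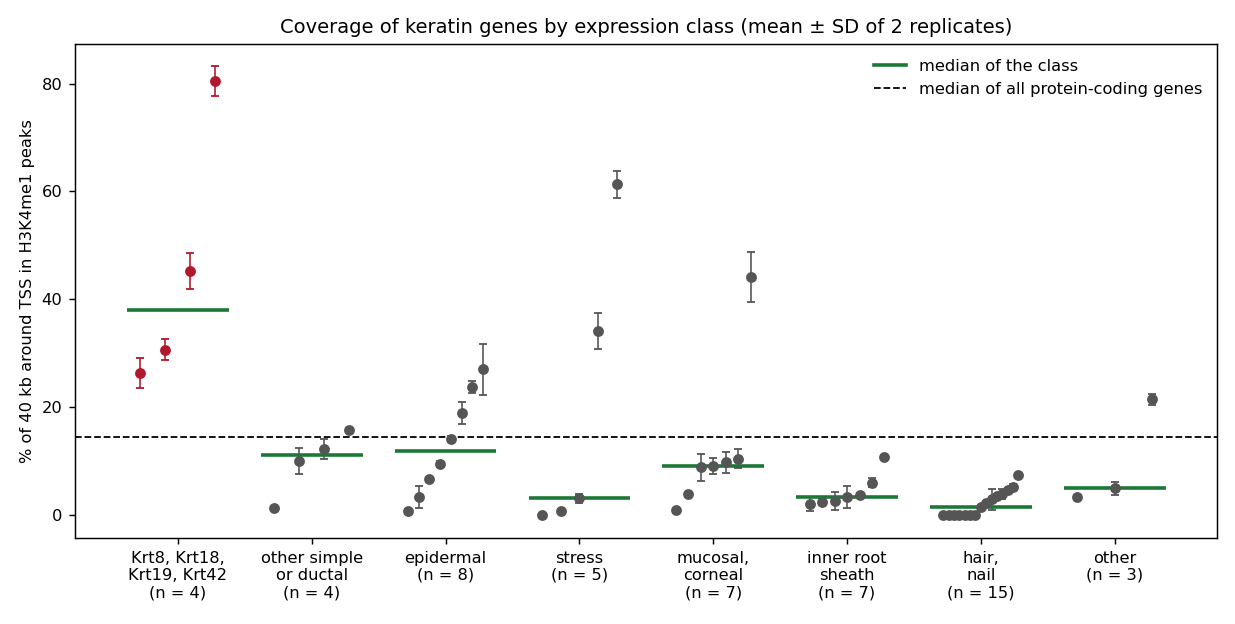
Coverage of the 40 kb around each keratin TSS by expression class, as the mean of the 2 replicates with the SD as error bars, Krt8, Krt18, Krt19 and Krt42 in red at the left. Green lines are class medians (38.0% for the 4 genes, 1.61% for hair and nail) and the dashed line is the median of all protein-coding genes, which Krt17, Krt78 and Krt16 exceed within classes of low median.

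Of the 29 keratins with a promoter peak, 16 had a single replicated peak within 2 kb of the TSS, and in 12 of these 16 it covered the TSS. These single peaks had a median width of 580 bp and signal values of 2.70 to 5.80, against a median width of 692 bp and a median signal of 4.22 over the whole replicated list. Krt24 had a peak of 282 bp, Krt1 one of 211 bp that began 1 bp downstream of the TSS, and Krt16 one of 366 bp that ended 77 bp upstream. Over the 4 simple-epithelial genes the promoter peaks numbered 10 with a median width of 1907 bp and a median signal of 7.06, against 39 with 573 bp and 3.69 over the other 25 keratins that had any. With the 50000 strongest peaks of each list, 8 keratins had a promoter peak, in place of 29. The matching share of all genes is not given here. With this cut the all-gene median of coverage also fell, from 14.6% to 2.81%.

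Each cluster was a trough between richly marked flanks. The chromosome 11 cluster, at chr11:99232761-100269951, had 6.60% and 5.80% of its bases in peaks in the 2 replicates, a mean of 6.20% ± 0.56 (SD, n = 2). The 200 kb before it had 32.2% ± 1.68, the 200 kb after it 55.5% ± 2.49 (SD, n = 2), and the whole chromosome 14.9%. The chromosome 15 cluster, at chr15:101348315-102032026, had 9.15% and 8.05%, a mean of 8.60% ± 0.77 (SD, n = 2). Its flanks had 48.1% ± 0.25 and 47.3% ± 1.68 (SD, n = 2), and the whole chromosome 9.46%. Both clusters were below both of their flanks in each replicate by far more than the spread between replicates. The chromosome 15 cluster was within about 1 percentage point of its chromosome, and the chromosome 11 cluster was lower than its chromosome.

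**Figure D5:**
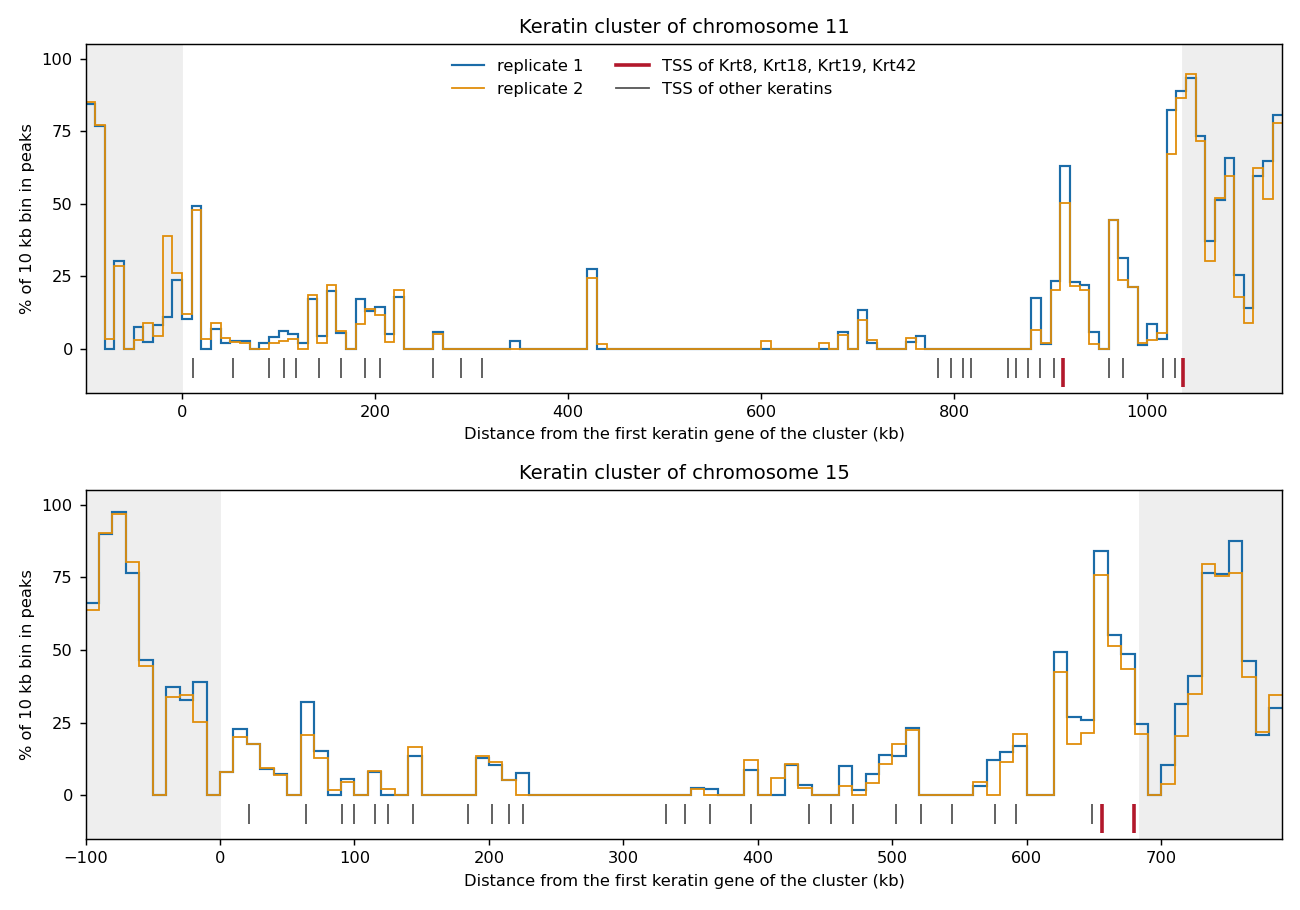
Percentage of each 10 kb bin inside peaks along the keratin clusters of chromosomes 11 and 15, by distance from the first keratin gene, for replicate 1 (blue) and replicate 2 (orange), with 100 kb of flank on each side in grey. Ticks under the axis mark keratin TSSs (red for Krt8, Krt18, Krt19 and Krt42), and the middle of the chromosome 11 cluster, with the keratin-associated genes and the hair keratins, is mostly at 0 but holds a bin at 27.5% and 24.3% in the 2 replicates, 420 kb from the start.

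Within the clusters the mark was gathered at the high-coordinate ends. The boundaries used in this paragraph and the next were chosen after the values had been seen. On chromosome 11 the part from Krt13 to Krt42 is 14.7% of the length and held 57.7% ± 0.97 (SD, n = 2) of the covered bases. The part from Krt16 to Krt42 alone is 2.30% of the length and held 21.8% ± 0.26, with 58.9% of its bases in peaks. On chromosome 15 the 35 kb from Krt8 to Krt18 are 5.16% of the length and held 33.9% ± 0.24 of the covered bases, with 56.4% ± 4.66 (SD, n = 2) in peaks. The 50 kb from the end of Krt42 to the translation factor gene Eif1 went on at 66.7%, whereas the 41.7 kb from the end of Krt18 to Eif4b had 13.5%.

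The remaining parts were low. From Krt222 to Krt40 coverage was 6.65%, and over the 468 kb block of keratin-associated genes it was 1.19%. The 98.3 kb from Krt33a to Krt36, with 7 hair keratin genes, had no peak in either replicate or in the replicated list. On chromosome 15 coverage was 7.37% from Krt80 to Krt75, 0.91% ± 0.48 from Krt6b to Krt5, 5.72% from Krt71 to Krt76 and 12.9% ± 3.91 (SD, n = 2) from Krt4 to Krt79.

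The longest stretch with no peak in either replicate was 173583 bp, at chr11:99663570-99837152 in the keratin-associated block. The next, 128111 bp at chr15:101574086-101702196, holds the TSSs of Krt6b and Krt6a. Another, 119848 bp at chr11:99994007-100113854, holds those of Krt33a, Krt33b, Krt34, Krt31, Krt32, Krt35 and Krt36, and one of 80070 bp those of Krt39 and Krt40. Empty in both replicates were 56 of 104 bins of 10 kb on chromosome 11 and 30 of 69 on chromosome 15. Reads cannot be placed in repeated sequence, so uniqueness was measured on the mm9 genome, over bins empty in both mm9 replicate lists (67 of 104 on chromosome 11 and 33 of 69 on chromosome 15). A median of 90% of sampled 32-base words were unique in these bins on chromosome 11 and 92.5% on chromosome 15, against 95.0% in the other bins of each. Under 60% of words were unique in 6 of the 67 and 2 of the 33 empty bins, with a lowest value of 2.5% on chromosome 11. These poorly unique bins were not spread evenly. By mm9 position, all of those on chromosome 11 lay between Krt40 and Krt33a, in the keratin-associated block that holds the longest stretch. All of those on chromosome 15 lay between Krt75 and Krt6b, where the next longest stretch runs. The medians over all empty bins therefore need not hold for these stretches. The windows of Krt6b and Krt6a, which are near-identical copies of each other in part, had 82.5% and 87.5% unique words. The part of read placement in the low values was not tested further.

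Position along the cluster went with coverage. Across the 53 members, Spearman's rho between the distance of the TSS from the nearer end of its cluster and coverage was -0.75 (-0.79 on chromosome 11, n = 27, and -0.76 on chromosome 15, n = 26), and Pearson's r was -0.66. Neighbouring members share window bases, and windows near an end reach into the marked flanks, so these points are not independent. The low-coordinate side of chromosome 11 did not follow this order throughout: past Krt222, coverage was 3.93% at Krt24 (52.5 kb from the end) and 2.13% at Krt25 (90.2 kb), but 10.7% at Krt28 (142.1 kb) and 12.3% at Krt20 (205.4 kb). The 12 members above the all-gene median lay at most 134 kb from an end, with a median of 24.8 kb. The nearest of the 8 members at 0 lay 181.7 kb from an end, and the median over all members was 148.4 kb. All 4 genes of the simple-epithelial set lay in the high-coordinate ends. Krt42 was at the very end, Krt18 3.8 kb, Krt8 27.7 kb and Krt19 124.0 kb from the end. In these data their set and their position cannot be told apart.

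Genes of other families inside and beside the clusters were measured the same way. The 23 keratin-associated genes of the chromosome 11 cluster, which encode matrix proteins of the hair shaft, had a median of 0.36%, with 2 promoter peaks and 9 genes at 0. Over all 52 Krtap genes the median was 0.21%, with 4 promoter peaks and 25 genes at 0. Krtap13-1 was highest at 12.7% and Krtap5-5 next at 7.44%. Of 16 further genes inside the clusters, 12 had no covered base: Gm11554, Gm11559, Gm11562, Gm11564, Gm11567, Gm11568, Gm11569, Gm11595, Gm11596, Gm11937, Gm11938 and Gm5414. Gm11555 and Gm11563 had 6.67% each, Gm11565 had 1.60% and 2300003K06Rik had 0.35%. Just outside, the nearest genes were far higher. On chromosome 11 they were the chromatin remodelling gene Smarce1 at 27.3% ± 5.41 on the low side and Eif1 at 38.8% ± 3.15 (SD, n = 2) on the high side. On chromosome 15 they were Smim41 at 45.2% ± 0.46 on the low side and Eif4b at 46.3% ± 2.01 (SD, n = 2) on the high side.

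The keratin median of 4.76% was below those of other filament, junction and epithelial transcription factor genes and above that of epidermal barrier genes. Other intermediate filament genes had a median of 34.0% over 15 genes, 14 with a promoter peak, led by the nuclear lamin genes Lmna at 75.8% and Lmnb2 at 69.5%. The lowest were Bfsp2 of the lens at 2.55% and Synm at 2.65%. Genes of desmosomes and plakin linkers, which anchor keratin filaments at cell junctions, had a median of 19.1% over the 17 of 18 that were measured, 14 with a promoter peak. Jup, the gene of plakoglobin, had 82.6% ± 1.79 (SD, n = 2) and Pkp3 had 72.5%, while the desmosomal cadherin genes Dsc1 and Dsg1a were at 0. Epithelial transcription factor genes had a median of 38.6% over 16 genes, 15 with a promoter peak. Grhl3 had 81.4% ± 0.21 and Grhl2 had 65.3% ± 5.81 (SD, n = 2), whereas Trp63, the master regulator gene of basal epidermis, had 0.45% ± 0.63 and Elf5 had 4.30%. Epidermal barrier genes had a median of 0.25% over 14 genes, 5 with a promoter peak and 6 at 0, among them Sprr1b and Hrnr. Cdsn at 65.1% and Tgm1 at 50.4% were the exceptions in that list. By their median the 53 keratins lay between the junction genes and the barrier genes. The promoter peak counts of these lists stand against 74.7% of all protein-coding genes.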

How the data were processed

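H3K4me1 peaks of 2 biological replicates of E14TG2a.4 cells were used, with 1 group and no comparison between conditions. The authors' mm10 files are narrowPeak lists (1 per replicate, 1 of pooled and 1 of replicated peaks) and their mm9 files broadPeak lists, per the read-me text of each sample. Not given in the sources used here: the aligner, peak caller, duplicate handling and use of an input control. Replicate 2 and series files also derive from a further file whose role is not stated, per the same read-me text. The deposited signal value of each peak is on an unstated scale and was used only to describe, rank or filter peaks within a list. The deposited −log10 p and q values of the mm10 lists, and the p-value and q-value columns of the mm9 lists, served only as filters or were not used. Read counts were not used here, so depth is unknown and no counting interval can be given.

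Gene spans and the protein-coding type came from RefSeq (GRCm38.p6) and strands from GENCODE vM1 on mm9, 18389 of them by symbol and 2183 by a synonym. A further 1324 of 21896 genes had no strand and were left out. Intervals of a list do not overlap. The percentage of bases covered was computed 20 kb on each side of the TSS in each replicate. The error is the SD of 2 replicates. Promoter peaks (within 2 kb) came from the replicated list. Genes are not replicates and neighbouring windows overlap, so no test was run. Coverage code was checked on simulated intervals. Python 3.11.15, numpy 2.4.6, pandas 2.3.3, numba 0.67.0 and matplotlib 3.10.9 were used. Named genes were Krt8, Krt18, Krt19 and Krt42, the keratins with a promoter peak, the 10 highest, the extremes of each class or list, and genes inside and next to the clusters. The members, classes and lists were chosen with earlier results of these data known. The mm9 lists, other windows, gene bodies, the pooled and replicated lists, stronger peaks, uniquely mappable members and leaving out each replicate were tried as alternatives.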

Additional observations from a re-analysis of the deposited data

How the results depend on the processing

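Median coverage of the 4 simple-epithelial genes minus that of the other keratins, 34.1 percentage points on the means of both replicates, was positive under every alternative run. It was 60.2 with 5 kb windows, 25.1 with 50 kb windows, 48.4 over gene bodies, 37.1 with the pooled list, 37.2 with the replicated list, 46.7 with the mm9 lists and 15.8 with the 50000 strongest peaks. It was 27.0 over uniquely mappable members, 26.8 without Krt42, 41.3 without Krt18, and 22.5 with Krt7, Krt20 and Krt23 added to the set. The keratin median, 4.76%, was 5.90% with 5 kb and 6.17% with 50 kb windows, 4.07% over bodies, 6.07% pooled, 7.80% on mm9, 4.50% at −log10 q of at least 2, 0.0% with the strongest peaks and 4.92% over mappable members. Over all protein-coding genes the median, 14.6%, was 22.1% with 5 kb windows, 13.4% with 50 kb windows and 13.3% over bodies. The all-gene median was 24.2% on mm9 and 2.81% with the strongest peaks. Keratins with no covered base, 8, numbered 15 with 5 kb windows, 1 with 50 kb windows and 16 over bodies. They numbered 11 with the replicated list, 10 on mm9 and 36 with the strongest peaks. All-gene shares for these counts are not given here. Keratins with a promoter peak, 29, numbered 34 with the pooled list, 30 on mm9, 28 within 1 kb and 32 within 5 kb. They numbered 8 with the strongest peaks and 28 with RefSeq promoter-entry start sites, an alternative chosen after seeing the data. Chromosome 11 cluster coverage, 6.20%, was 7.82% pooled, 6.92% replicated, 9.27% on mm9, 2.52% with the strongest peaks and 9.18% with 50 kb added on each side. Chromosome 15 cluster coverage, 8.60%, was 10.1% pooled, 12.3% on mm9, 2.49% with the strongest peaks and 10.2% with 50 kb added. Peaks shared between replicates, on average 77.7%, were 47.9% at 50% reciprocal overlap. The causes of these shifts were not tested. Coverage of a single member moved by more than its SD in 38 of 53 members with 5 kb windows, 41 with 50 kb windows, 39 over bodies, 42 on mm9, 34 pooled, 45 with the strongest peaks, 5 at −log10 q of at least 2 and 2 with promoter-entry start sites. Leaving out each replicate gave 4.69% to 4.85% for the median, 31.9 to 35.4 for the difference, 8 for keratins at 0, 30 to 32 promoter peaks, 5.80% to 6.60% for chromosome 11 and 8.05% to 9.15% for chromosome 15. No paired analysis was possible because there is 1 group. Unknown depth limits every absence: a gene at 0 has no listed peak, which is not proof that the mark is absent.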
